A study of Mus musculus with 4 samples.

Results

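Chaperones and heat shock proteins are described here in naive CD8 T cells sorted from the spleens of Klf13 knockout and wild-type mice. The 39 genes are listed cytosolic, endoplasmic reticulum (ER) and mitochondrial chaperones and a few of their partners. Each was read from the probe set that GEO's platform annotation pairs with that symbol alone, and where there were several, from the one with the highest mean over the 4 arrays. This gave values for 36 of the 39, among 19938 genes measured in all. Hspa1b, Hsf1 and Hsp90ab1 had no such probe set. The probe set that covers Hspa1b is shared with Hspa1a and is given beside it.

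There were 2 arrays for the knockout and 2 for the wild type, each from its own sample of total RNA. Both groups were of the BALB/c strain and unstimulated as far as the labels say. The labels give no age or sex, no description of the deleted part of Klf13, and do not say whether a group's arrays hold RNA of different mice. Each p-value therefore measures the spread between these arrays alone, pooled in part over all genes, and part or all of it may be technical. All values are log2 probe-set values. Differences are knockout minus wild type.

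Chaperones bind proteins that are unfolded or newly made. HSP70 proteins such as those of Hspa1a and Hspa8 hold and release short hydrophobic stretches in a cycle driven by ATP, started by J proteins (the Dnaj genes) and reset by exchange factors such as Hsph1 and Bag3. HSP90 finishes signalling proteins, and the ring-shaped chaperonin CCT folds actin and tubulin. In the heat shock response the factor HSF1 is freed from chaperones when unfolded proteins build up, binds repeats of the letters GAA in alternating orientation (heat shock elements) and drives Hspa1a and Hspa1b, together with Dnajb1, Hsph1, Bag3, Hspb1 and others. Unfolded protein in the ER is sensed separately, and drives Hspa5, Hsp90b1 and other ER genes through factors such as ATF6 and XBP1, which act at ER stress response elements.

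The promoters of the Hspa1 pair are shown first because the result below turns on these 2 genes. RefSeq's promoter table for the mouse assembly GRCm38.p6 had an entry for 32 of the 39 genes, and none for Hspa8, Hsf1, Hsp90aa1, Hsp90ab1, Cct4, Hspa13 and Hspa9. The 250 bases before each annotated start were searched on both strands. Hspa1a lies at chr17:34972157-34972406 and Hspa1b at chr17:34959239-34959488, both on the minus strand and given 5′ to 3′. Capitals mark the heat shock element GAANNTTC, where N is any base.
Hspa1a: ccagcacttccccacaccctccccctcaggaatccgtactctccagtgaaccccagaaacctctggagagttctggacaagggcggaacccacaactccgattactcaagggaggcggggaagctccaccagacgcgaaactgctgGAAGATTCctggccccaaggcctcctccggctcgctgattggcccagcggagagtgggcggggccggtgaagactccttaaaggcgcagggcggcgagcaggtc
Hspa1b: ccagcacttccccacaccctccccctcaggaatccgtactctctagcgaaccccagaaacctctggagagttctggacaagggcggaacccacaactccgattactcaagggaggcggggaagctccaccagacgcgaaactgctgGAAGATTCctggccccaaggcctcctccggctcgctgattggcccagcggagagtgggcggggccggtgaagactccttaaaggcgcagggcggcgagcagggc

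The 2 promoters were the same at 247 of 250 bases (98.8%), and each held 1 GAANNTTC, starting 104 bases before the start. This motif, or its tail-to-tail form TTCNNGAA, was found in the promoters of 8 of the 11 heat-inducible genes with an entry: Hspa1a, Hspa1b, Hsph1, Dnaja1, Dnajb4, Hspb1, Hspd1 and Hspe1. These 11 genes have 17 promoters in the table, of which 9 (52.9%) held either form. Over all 32851 promoters of the table, 12.8% held either form. Dnajb1, Bag3 and Hspa4l held neither form in this window. A 3-unit element, in which GAANNTTC is followed by 2 further bases and another GAA, contains both forms and was found in 0.466% of all promoters. Among the chaperone genes it occurred in the J protein gene Dnajb6 and in the stretch between the divergent mitochondrial genes Hspd1 and Hspe1, which both windows share. Fixed letters are in capitals in these matches, given in the orientation of the motif.
Dnajb6: GAAtcTTCcgGAA
Hspd1 and Hspe1, first match: GAAggTTCtaGAA
Hspd1 and Hspe1, overlapping match: GAAccTTCcgGAA

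No ER gene held either heat shock form in this window, whereas 6 of the 10 ER genes with an entry held the ER stress response element, CCAAT and CCACG with 9 bases between them. This element was found in 0.113% of all promoters and in no promoter of the cytosolic or mitochondrial genes. All 10 ER genes held its CCAAT part on 1 strand or the other, against 33.8% of all promoters. The matches are shown because they mark the ER group by a feature that its listing did not use. A match is a description of the letters and is not a measured site.
Hspa5: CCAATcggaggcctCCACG
Hsp90b1, farther match: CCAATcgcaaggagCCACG
Hsp90b1, nearer match: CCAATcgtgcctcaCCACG
Calr: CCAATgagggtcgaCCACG
Canx: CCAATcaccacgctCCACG
Pdia6: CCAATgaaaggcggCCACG
Dnajc3: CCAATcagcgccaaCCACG

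**Figure D1:**
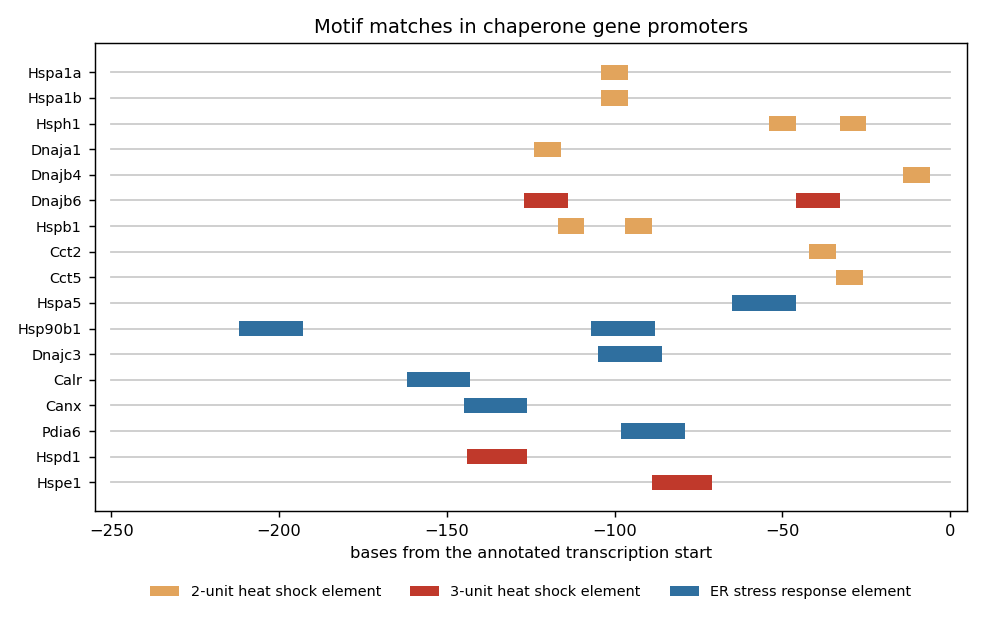
Matches in the 250 bases before the annotated transcription start, by gene; the x axis is the distance in bases, and a bar spans each match on either strand. ER genes carry blue bars and no orange or red ones; Hsph1 and Dnajb6 have 2 annotated starts, so that 1 site is drawn at 2 distances.

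Klf13, the targeted gene, was 5.46 and 5.43 in the knockout and 7.01 and 7.15 in the wild type, a fall of 3.10-fold (limma adjusted p = 3.75e-05). Whether its probe set lies in the deleted part is not known here, so this checks the labels only as far as that. Of the 12 CD8 T cell markers 10 were measured, and 0 passed (median -0.06). At an unadjusted p under 0.05, 0 were higher and 2 lower, where 7.85% and 8.75% of all genes were. Both knockout arrays were lower for 4 of the 10 and higher for 3. Of the 9969 genes with the higher mean levels, 38.8% and 17.0% lay so. Thy1 (-0.34, limma adjusted p = 0.109), Ccr7 (-0.27, adjusted p = 0.181) and Cd2 (-0.19, adjusted p = 0.327) had the smallest p, each with both knockout arrays lower. The defining genes Cd8a, Cd8b1, Cd3e and Cd3g lay between 9.45 and 11.5 on every array, and Cd4 between 3.47 and 4.07. Cd8a, Cd8b1, Cd3e and Cd3g differed by -0.07, -0.01, 0.07 and 0.08. Cd3d was 8.88 and 9.09 in the knockout and 9.14 and 9.23 in the wild type, with both knockout arrays lower (-0.20, limma adjusted p = 0.387). Over all genes the arrays correlated with r of 0.994 to 0.998. Knockout replicate 1 stood apart in its upper quartile over all probe sets, 6.52 against 6.63 to 6.67 on the other 3 arrays. In all, 448 of 19938 genes passed limma's test (adjusted p under 0.05 by Benjamini-Hochberg), 2.25%, with 1.19% higher and 1.05% lower in the knockout.

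Of the 36 chaperone genes measured, 1 rose, 0 fell and 35 did not pass. The gene that rose was Hspa1a, which encodes the stress-inducible cytosolic HSP70. A share of 1 in 36, 2.78%, lies near the 2.25% of all genes. Because the list was chosen with the rise of Hspa1a known, this share is not a rate for chaperone genes. At an unadjusted p under 0.05, 6 of the 36 (16.7%) were counted, against 16.6% of all genes. These were Hspa1a, which was higher, and Hspa14, Hsph1, Dnajb6, Cct8 and Dnajb11, which were lower. Hspa1a was also the only one of the 36 that differed by at least 1.5-fold, a size reached by 1.19% of all genes.

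Hspa1a was 7.37 and 7.34 on the knockout arrays and 6.35 and 6.40 on the wild-type arrays. The knockout pair was higher with no overlap, and the arrays of a pair differed by far less than the groups. The means were 7.35 ± 0.02 and 6.38 ± 0.03 (SD, n = 2), a rise of 1.97-fold (log2 fold change 0.97, SE 0.09, limma adjusted p = 0.000498). The probe set paired with both Hspa1a and Hspa1b was 9.07 and 9.13 in the knockout against 7.77 and 7.85 in the wild type. That is a rise of 2.44-fold (log2 fold change 1.29, SE 0.09, limma adjusted p = 0.0425 over all 35556 probe sets). Fitted over all probe sets, 39 of which passed (0.11%), the Hspa1a probe set itself did not pass (adjusted p = 0.0725), with the same log2 fold change. It passed in the other 10 alternatives (adjusted p from 8.16e-15 to 0.0725 over all 11). The coding sequences of this pair are nearly identical, and whether the Hspa1a probe set also binds Hspa1b transcripts is not given in the files.

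Hspa1a lies on chromosome 17, in the stretch of the major histocompatibility complex between its class I and class II genes, and not on the chromosome of Klf13, which is 7. Within 250 kb of its start, 40 other genes were measured, of which 0 rose and 0 fell, with a median log2 fold change of 0.06 and a range from -0.33 to 0.36. Ehmt2, a histone methyltransferase gene, had the smallest p at 0.36 (limma adjusted p = 0.112), followed by the chloride channel gene Clic1 at 0.29 (adjusted p = 0.158) and Zbtb12 at 0.25 (adjusted p = 0.235). The adjacent and divergent gene Hspa1l, a testis form of HSP70, differed by 0.15 (limma adjusted p = 0.555).

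The question whether the rise belonged to a heat shock response was put to the 13 listed genes that heat induces, of which 12 were measured. Hspa1a rose and the other 11 did not pass. Without Hspa1a their median log2 fold change was -0.05, with a range from -0.24 to 0.22, against a median of 0.02 over all genes and -0.06 over the 9969 genes with the higher mean levels. The median of the 11 was -0.01 without knockout replicate 1 and -0.10 without knockout replicate 2. Dnajb1, the J protein that works with inducible HSP70, was 8.32 and 8.40 in the knockout and 8.21 and 8.11 in the wild type. Its groups did not overlap, and the difference was 0.20 (SE 0.09, limma adjusted p = 0.331). Hsph1, the HSP110 exchange factor, was 9.54 and 9.61 against 9.84 and 9.80, so that both knockout arrays were lower (-0.24, SE 0.09, limma adjusted p = 0.231).

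Hspb1, the small heat shock protein, was 4.13 and 3.83 in the knockout and 3.74 and 3.78 in the wild type. The knockout pair spread over more than its distance from the wild type, and the level was near the low end of the table (0.22, limma adjusted p = 0.363). Bag3, which couples HSP70 to autophagy, was 5.04 and 5.53 in the knockout and 5.22 and 5.45 in the wild type, so that the groups overlapped (-0.04, limma adjusted p = 0.919). Hsp90aa1, the inducible cytosolic HSP90, was 11.74 and 11.73 in the knockout and 11.77 and 11.73 in the wild type (-0.01, limma adjusted p = 0.971), again with overlap. Hspa4l, an HSP110 relative, differed by 0.09 and Hspa8, the constitutive HSP70, by -0.05. Dnaja1 (-0.18), a J protein that works with Hspa8, and Dnajb4 (-0.10) did not pass either.

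Within each array, the Hspa1a value was also set against the mean of these other 11 genes. The difference was -1.42 and -1.48 in the knockout and -2.51 and -2.43 in the wild type, so that the groups stood 1.02 apart. This follows by arithmetic from the rise of Hspa1a and the values of the other 11 genes, and is not a separate check of the rise.

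**Figure D2:**
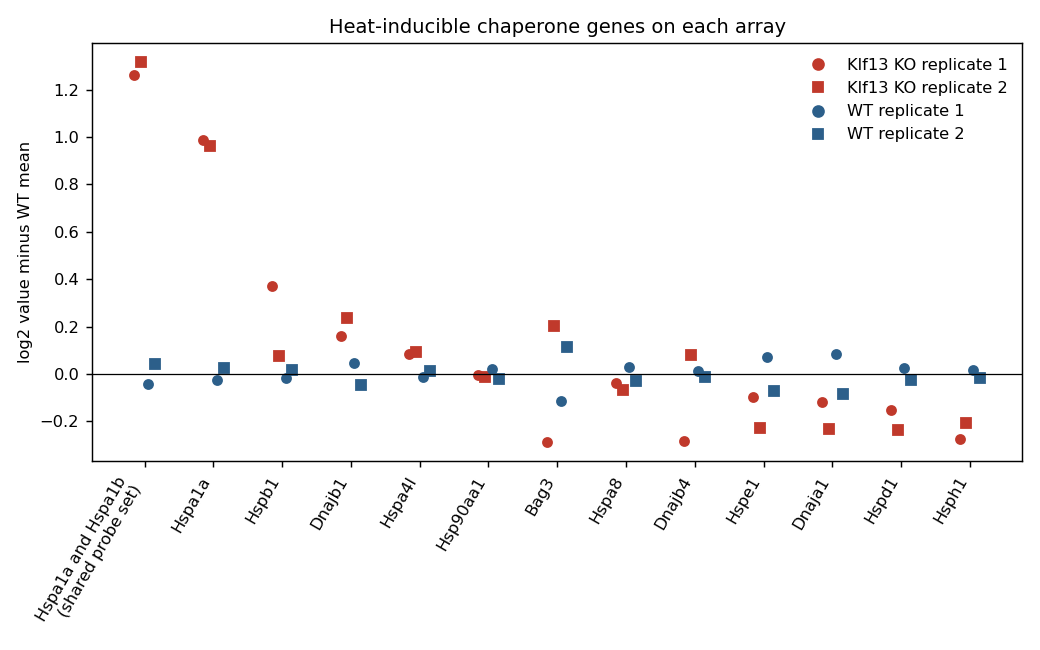
Log2 value on each array minus the wild-type mean, for the 12 measured heat-inducible genes and the probe set shared by Hspa1a and Hspa1b; red is knockout, blue is wild type, circles are replicate 1 and squares replicate 2. The knockout arrays stand about 1 or more above the wild-type mean for the Hspa1 probe sets and within 0.37 of it for the 11 other genes.

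Genes of the heat shock response outside the chaperone list gave counts of the same kind. Over all genes 2.25% passed, so a count of 0 in a list of 11 to 14 genes lies near that share. Of 13 listed, 11 were measured, of which 0 rose and 0 fell, with a median of 0.003. Hspb8, a small heat shock protein that acts with Bag3, had the smallest p at 0.33 (limma adjusted p = 0.115). Its values were 4.23 and 4.22 in the knockout and 3.95 and 3.84 in the wild type. These lay below the median level of 4.64 over the genes tested. Ahsa2 followed at -0.23 and Chordc1, an HSP90 partner, at -0.27. Of 14 cochaperones of HSP70 and HSP90, 0 rose and 0 fell (median -0.03). Those with the smallest p were Unc45a, a myosin chaperone (-0.35), Bag5 (-0.29) and Cdc37, which brings kinases to HSP90 (0.25). Among 11 genes of oxidative and electrophile stress the counts were again 0 and 0 (median -0.09), with the metallothionein gene Mt2 at -0.22 and the glutathione synthesis genes Gclm and Gclc at -0.17 and -0.14. The 12 immediate-early genes, which respond within minutes to handling of cells, had 0 rises and 0 falls and a median of 0.01, with Nr4a1 at 0.36, Junb at 0.21 and Fosb at -0.18. At an unadjusted p under 0.05, 1 cochaperone was higher and 2 lower. The counts were 0 and 1 for oxidative stress and 1 and 0 for the immediate-early genes. With an array left out, the median of the heat shock response list ranged from -0.05 to 0.005 and that of the cochaperones from -0.11 to -0.005. The median ranged from -0.10 to 0.006 for oxidative stress and from -0.04 to 0.07 for the immediate-early genes.

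The other cytosolic HSP70 and HSP110 genes held close to the wild type or lay below it. Hspa14, a ribosome-associated HSP70, was 7.29 and 7.44 in the knockout and 7.69 and 7.70 in the wild type. Both knockout arrays were lower, by 0.33 on average (SE 0.10), and the test was not passed (limma adjusted p = 0.121). Hspa4, an exchange factor of the HSP110 type, differed by -0.06. Hspa2, an HSP70 best known from germ cells, was 4.60 and 5.05 in the knockout and 4.61 and 5.02 in the wild type, a wide spread in each group with the groups overlapping (0.01, limma adjusted p = 0.983). Over the 7 genes measured in this class the median was -0.05.

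Among the J proteins, Dnajb6, which keeps aggregation-prone proteins soluble, was 5.72 and 5.86 in the knockout and 6.17 and 6.07 in the wild type. The groups did not overlap (-0.33, SE 0.10, limma adjusted p = 0.130). Further probe sets that pair Dnajb6 with the gene model Gm4247 differed less, by -0.13 to -0.08, also with both knockout arrays lower. Their mean levels over the arrays were 8.9 to 9.6, against 6.0 for the probe set used. All results given for Dnajb6 by itself thus rest on the dimmer probe set. How far the brighter ones measure Dnajb6 itself was not tested. Dnaja2 was 8.33 and 8.29 against 8.47 and 8.53 (-0.19, limma adjusted p = 0.350). The 7 measured genes of the class of J proteins, Bag3 and Hspb1 had 0 rises and 0 falls and a median of -0.10, which became 0.07 without knockout replicate 1.

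All 7 listed subunits of the chaperonin CCT were measured, and 0 rose or fell. Their differences ran from -0.21 to 0.01, with a median of -0.06. Cct8 was 9.79 and 9.81 in the knockout and 10.03 and 10.00 in the wild type, which left the knockout arrays lower (-0.21, SE 0.09, limma adjusted p = 0.274). Cct2 was 10.52 and 10.62 against 10.68 and 10.70 (-0.12, limma adjusted p = 0.578). Tcp1, the first subunit to be named, was 10.35 and 10.34 against 10.47 and 10.44 (-0.11, limma adjusted p = 0.592). Cct5, Cct3, Cct7 and Cct4 differed by -0.06, -0.05, -0.02 and 0.01.

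Prefoldin, which hands actin and tubulin chains to CCT, and the remaining CCT genes and regulators formed a list of 10, all measured. Of these 0 rose, 0 fell and 9 were below 0, with a median of -0.17. Below 0 were 45.9% of all genes and 64.8% of the 9969 genes with the higher mean levels, whose median was -0.06. Vbp1, a prefoldin subunit, was 6.98 and 6.97 in the knockout and 7.47 and 7.25 in the wild type (-0.38, limma adjusted p = 0.102). Pfdn2 differed by -0.32 (adjusted p = 0.119) and Pfdn4 by -0.26 (adjusted p = 0.246).

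The ER chaperones lay slightly to either side of the wild type, and none of the 11 rose or fell. The knockout arrays were both higher for 4 of them, Hspa13, Hsp90b1, Pdia4 and Pdia6. Both were lower for 3, Dnajb9, Dnajb11 and Dnajc3. Over all genes 24.4% were entirely above and 23.2% entirely below, and over the 9969 genes with the higher mean levels 17.0% and 38.8%. Hsp90b1, the HSP90 of the ER, was 10.79 and 10.82 in the knockout and 10.68 and 10.66 in the wild type (0.14, SE 0.09, limma adjusted p = 0.495). Hspa13 was 7.06 and 7.36 against 6.99 and 7.05, a spread within the knockout pair larger than the difference of 0.19 (limma adjusted p = 0.441). The protein disulfide isomerases Pdia4 and Pdia6 differed by 0.12 each and Pdia3 by -0.06.

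Dnajb11, a J protein that delivers clients to the ER HSP70, was 7.86 and 8.01 in the knockout and 8.15 and 8.19 in the wild type, with both knockout arrays lower (-0.23, SE 0.10, limma adjusted p = 0.262). Dnajb9, another J protein of the ER, was 8.28 and 8.07 against 8.36 and 8.34 (-0.17, limma adjusted p = 0.447). Hspa5, which encodes BiP, the central HSP70 of the ER, was 10.40 and 10.58 against 10.50 and 10.56, so that the groups overlapped (-0.04, limma adjusted p = 0.894). The lectin chaperones Calr and Canx differed by 0.02 and -0.002, and Dnajc3, an inhibitor of the ER stress kinases, by -0.04. The 6 genes with an ER stress response element shown above were thus on both sides of 0, between -0.04 for Dnajc3 and 0.14 for Hsp90b1.

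Beyond the chaperones, 26 genes of the ER unfolded protein response were measured. None passed the test (0 higher, 0 lower), and their median was 0.07, which became 0.005 without knockout replicate 2, 0.01 without wild-type replicate 1 and -0.02 with each array centred on its median. At an unadjusted p under 0.05, 7 were higher and 2 lower in the knockout, where 7.85% and 8.75% of all genes were. Ppp1r15a, which restores translation after stress, was 7.33 and 7.38 in the knockout and 7.71 and 7.85 in the wild type (-0.43, limma adjusted p = 0.0546). Creld2, an ER protein induced by unfolded protein, was 7.98 and 7.95 against 7.56 and 7.59 (0.39, limma adjusted p = 0.0608). Herpud1, which serves the degradation of ER proteins, was 9.03 and 9.11 against 8.74 and 8.75 (0.33, limma adjusted p = 0.116). For each of these 3 the groups did not overlap.

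Plasma cells, which hold much ER and express many of these genes, are among the cells a spleen sort could admit, and their markers moved with genotype. Of 8 plasma cell markers 3 rose and 0 fell, and all 8 were above 0 (median 0.37). Over all genes 1.19% rose, and 10781 of 19938 were above 0. Ighm, the heavy chain of IgM, rose by 0.80 (limma adjusted p = 0.00168), Mzb1, an ER cochaperone of antibody-making cells, by 0.64 (adjusted p = 0.00970) and Derl3, a gene of ER degradation, by 0.52 (adjusted p = 0.0398). Derl3 no longer passed without wild-type replicate 1 (adjusted p = 0.144) or without wild-type replicate 2 (adjusted p = 0.0565). With the log undone, the 8 markers summed to 3134 and 3193 in the knockout and to 2331 and 2339 in the wild type. Their part in the small differences of Hsp90b1, Pdia4, Pdia6 and Creld2 was not tested. In bulk RNA more cells of a type and more RNA per cell cannot be told apart.

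Markers of other cells moved as well, beside the rise of Hspa1a. Over all genes 1.19% rose and 1.05% fell. Of 11 markers of neutrophils and their progenitors 4 rose (Mpo, Elane, Ctsg and Prtn3) and 0 fell, with summed values of 915 and 999 in the knockout and 291 and 339 in the wild type. Of 12 myeloid and dendritic cell markers 4 rose (Lyz2, Csf1r, Mpeg1 and Tyrobp) and 0 fell, with sums of 282 and 324 against 234 and 228. Of 6 NK cell markers 2 rose (Cd244a, and Tyrobp, which is also on the myeloid list), with Ncr1 at 0.41 (limma adjusted p = 0.139). Among 6 markers of red cells and platelets the platelet genes Itga2b and Pf4 rose, the red cell gene Epb42 was lower on both knockout arrays (-0.31, limma adjusted p = 0.148), and the sums of 435 and 468 in the knockout overlapped those of 452 and 467 in the wild type. Among 9 B cell markers 0 rose, with Cd79b at 0.51 (limma adjusted p = 0.0702), Cd79a at 0.32 and Pax5 at 0.24, and sums of 243 and 279 against 205 and 221. Of 5 CD4 T cell markers 2 fell (Cxcr5 and Tnfsf8), while Zbtb7b, a factor of the CD4 lineage, was higher on both knockout arrays (0.39, limma adjusted p = 0.0659). Calls were lost with single arrays left out: Itga2b and Tyrobp without either knockout array or wild-type replicate 1, Tnfsf8 without knockout replicate 1 or wild-type replicate 1, Cd244a and Csf1r without wild-type replicate 1, and Pf4 without either wild-type array. The 4 neutrophil markers, Lyz2, Mpeg1, Cxcr5, Ighm and Mzb1 passed with any 1 array left out. No detection calls were used, so no marker was called absent. The part of such cells in the Hspa1a result was not tested.

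The mitochondrial chaperones Hspa9, Hspd1 and Hspe1 all lay lower on both knockout arrays, and none passed the test. Of the 9969 genes with the higher mean levels 38.8% lay so. Hspd1, which forms the HSP60 ring, was 10.62 and 10.54 in the knockout and 10.80 and 10.75 in the wild type (-0.19, SE 0.09, limma adjusted p = 0.334). Its other probe set gave -0.37. Hspe1, the lid of that ring, was 11.17 and 11.04 against 11.34 and 11.19, where 1 wild-type array nearly reached the knockout (-0.16, limma adjusted p = 0.466). Hspa9, the HSP70 of the matrix, was 9.99 and 10.03 against 10.15 and 10.14 (-0.13, limma adjusted p = 0.505). Of 12 further genes of mitochondrial protein quality control, 0 rose, 0 fell and 11 were below 0, where 64.8% of the 9969 genes with the higher mean levels were. Their median was -0.16, and -0.07 without knockout replicate 1. The smallest p belonged to the protease genes Lonp1 (-0.28) and Spg7 (-0.27) and to Hscb (-0.20), which builds iron-sulfur clusters.

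Seen together, 25 of the 36 chaperone genes were below 0. Over all genes 45.9% were, and over the 9969 genes with the higher mean levels, which hold 35 of the 36, 64.8% were. For 17 of the 36 the knockout pair was entirely below the wild-type pair, against 23.2% of all genes and 38.8% of the brighter ones. It was entirely above for 8 of the 36, against 24.4% and 17.0%. The median over the 36 was -0.05, and the compartment medians were -0.05 for HSP70 and HSP110, -0.10 for the J protein class, -0.06 for CCT, -0.002 for the ER and -0.16 for the mitochondrion. These small medians depended on scaling. After a further quantile normalization that of HSP70 and HSP110 was 0.003, that of CCT 0.01 and that of the ER 0.05, while the mitochondrial median stayed negative at -0.12 and the rise of Hspa1a was 1.05. With each array centred on its median, which moved the median difference over all genes from 0.02 to -0.07, Hspa14 and Dnajb6 passed as lower, when 4.27% of all genes did and 1.19% passed as higher, and of all calls 21.8% were higher in the knockout, against 53.1%.

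**Figure D3:**
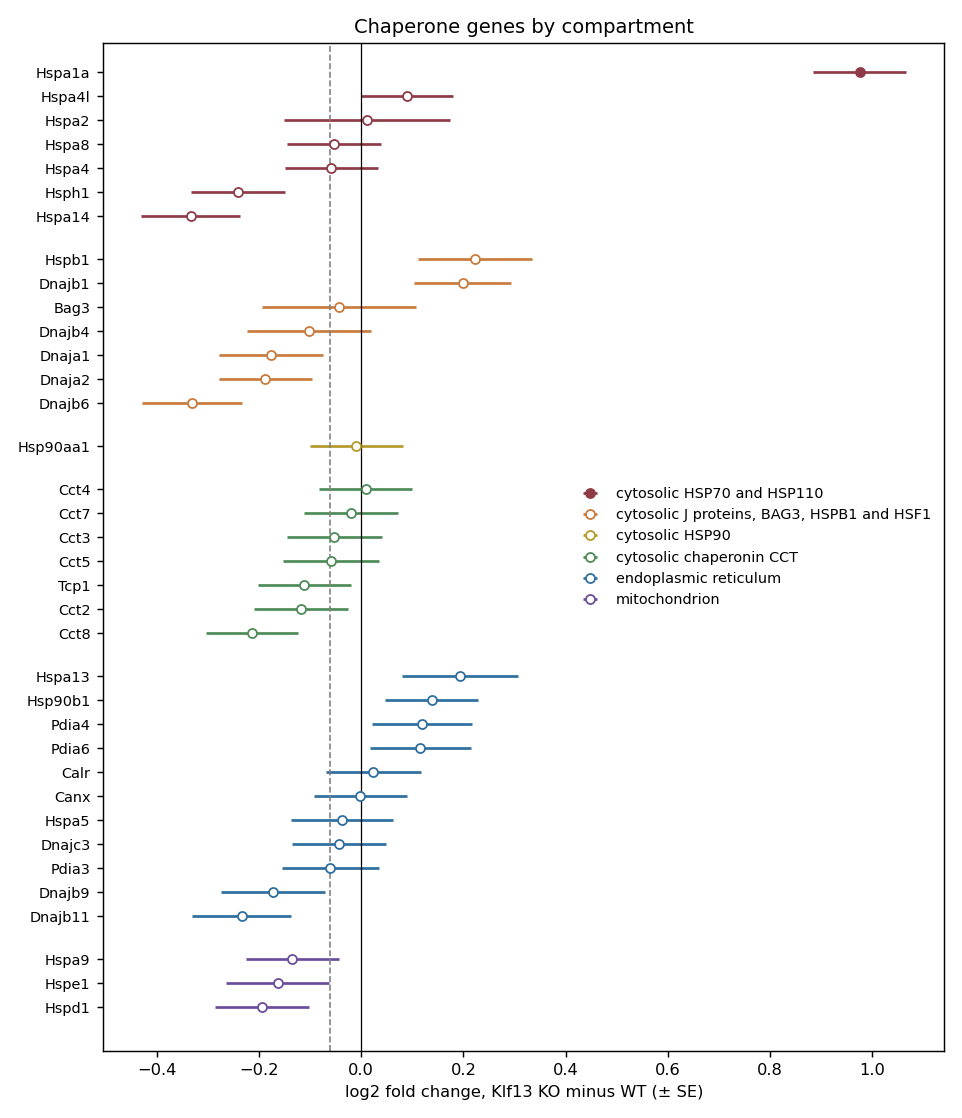
Log2 fold change, knockout minus wild type, with its limma SE, for the 36 measured genes by compartment; filled points passed at an adjusted p under 0.05, and the dashed line is the median of -0.06 over the 9969 genes with the higher mean levels. Hspa1a stands at 0.97, and the other 35 genes lie between -0.33 and 0.22.

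Several of these genes are represented by more than 1 probe set of their own, 8 in all, and in 7 of the 8 the probe sets had differences of 1 sign. The exception was Hsp90aa1, whose 3 probe sets gave -0.02 to 0.0006. For Hspa8 the 3 gave -0.15 to -0.05, for Dnaja1 the 2 gave -0.30 and -0.18, while a probe set paired with both Mir207 and Dnaja1 gave 0.17 with overlapping groups. For Hspe1 the pair gave -0.16 and -0.11 and for Hspb1 0.21 and 0.22, and the 2 probe sets of Dnajc3 held the same values on every array. Such probe sets can bind transcripts of processed copies of the gene, and which of them does so is not given in the files. Between arrays of a pair the SD of the difference over the 36 genes was 0.16 for the knockout and 0.10 for the wild type, and between groups it was 0.22 to 0.26. Without Hspa1a the between-group values were 0.15 to 0.20, against 0.16 for the knockout pair and 0.10 for the wild-type pair. The remaining 35 genes thus differed between groups about as much as between the knockout arrays, and more than between the wild-type arrays. An SD of differences does not register a shift that the genes share.

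**Figure D4:**
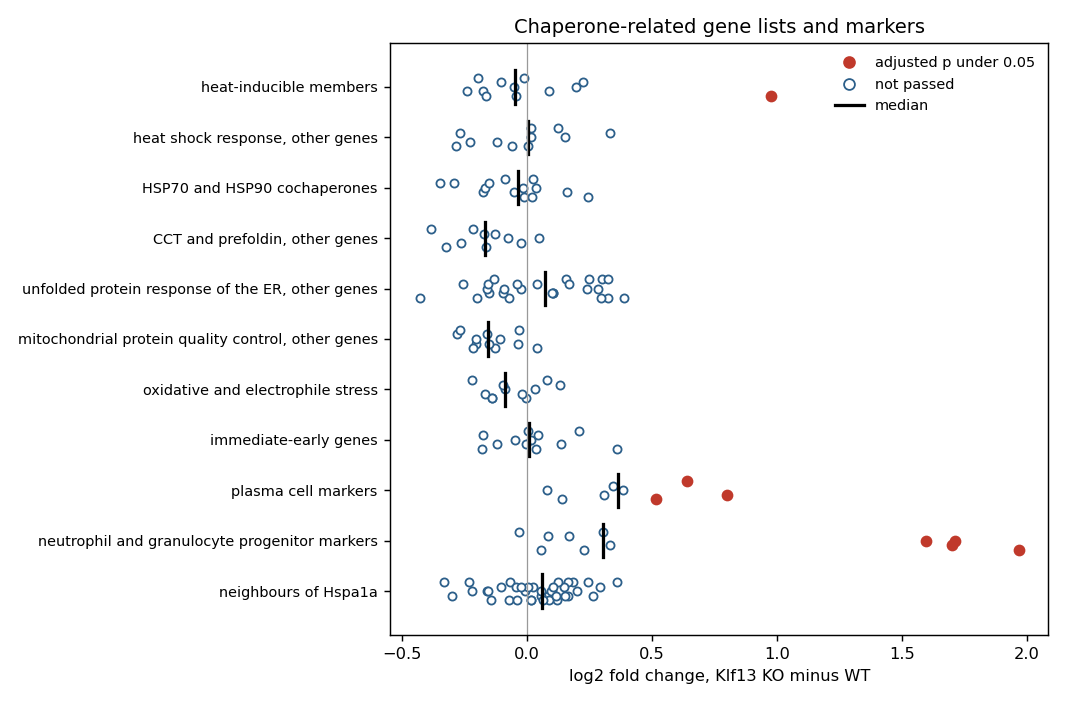
Log2 fold change, knockout minus wild type, of every measured gene of 11 lists; red points passed at an adjusted p under 0.05, open points did not, and black bars are list medians. In the chaperone and stress lists Hspa1a is the only red point; the others are 3 plasma cell and 4 neutrophil markers.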

How the data were processed

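Total RNA (200 ng, RNA integrity number above 9) was reverse transcribed from random primers, labelled with biotin and hybridised to 1-colour Affymetrix arrays, per the labels' protocols. Each deposited value is the log2 level of a probe set. The submitters' processing notes list Partek and RMA and give no version. RMA corrects background, equalises the arrays' probe distributions and summarises probe sets, which can remove a shift of most genes and compresses folds of dim genes. The deposited values were nevertheless not equal in distribution. Their median over the genes tested was 4.71 and 4.66 in the knockout and 4.59 and 4.61 in the wild type. Of 35556 probe sets, 21789 were paired with 1 symbol, 1621 with several and 12146 with none. Symbols were updated through gene identifiers to RefSeq (GRCm38.p6; 21698 matched), used only for names, neighbours and promoters, since the files name no build. Each gene was fitted on genotype alone by lmFit and moderated by eBayes (limma 3.58.1, R 4.3.3; two-sided p adjusted by Benjamini-Hochberg over 19938 genes, threshold 0.05), with no level filter; errors are the SD over 2 arrays or limma's standard error (SE). Moderation draws each gene's variance toward a value shared by all genes (prior degrees of freedom 8.06). A p-value or SE is thus not that of the gene's own spread alone. The number of arrays limits the precision.

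The members and lists were chosen with earlier results of these data known, so lists are described by counts and medians without a test. Named are all 39 members and the 3 neighbours of Hspa1a with the smallest p. Of each other list, the genes that passed and the 3 with the smallest p are named. Hspa1l, as the adjacent gene, and the defining T cell genes (Cd8a, Cd8b1, Cd3d, Cd3e, Cd3g and Cd4) were added after their values were seen. So were the per-array values of Hspa2, Hspa5, Bag3, Hspb1 and Hspb8. The settings varied were the features (every probe set by itself, a gene's probe sets averaged, or just the 9969 brighter genes), the scaling (a further quantile normalization or median centring), the variance model (a trend with robust moderation), a block for the replicate number, and each array left out; the shared Hspa1a and Hspa1b probe set and the spread between arrays without Hspa1a were added after seeing the data.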

Additional observations from a re-analysis of the deposited data

How the results depend on the processing

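Hspa1a was higher in the knockout under all 11 alternatives, by 0.89 to 1.05, and by 0.95 to 1.00 with an array left out. With all probe sets tested singly it did not pass (0.97, adjusted p = 0.0725; 39 calls in all, 0 chaperone genes higher). Its unadjusted p was then 9.19e-05, against 8.06e-07 over genes, with the same fold. The shared probe set passed there at 1.29. All calls numbered 1088 after median centring, 831 with a variance trend and robust moderation and 264 to 1536 with an array left out (264 without knockout replicate 1, 1536 without knockout replicate 2, 277 without wild-type replicate 1), against 448. Lower chaperone genes numbered 2 after centring (Hspa14, Dnajb6), 3 with the variance trend (Hsph1, Hspd1, Cct8) and 0 to 2 with an array left out, the 2 without knockout replicate 2 being Hspa14 and Dnajb6. The cause was not tested. A single array left in a group is assumed to vary like the others.

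Deviations of same-numbered arrays from their group means were nearly uncorrelated over all genes (0.01). With 2 arrays in a group this is a single independent value, so a pairing that affects few genes could not be seen. With the replicate number as a block, all calls numbered 1187, and the chaperone counts stayed at 1 higher and 0 lower.

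After centring, the medians were -0.14 (HSP70 and HSP110), -0.19 (J protein class), -0.10 (HSP90), -0.14 (CCT), -0.0876 (ER) and -0.25 (mitochondrion), as centring shifts every gene alike. After a further quantile normalization they were 0.031 (HSP90), 0.0091 (CCT) and 0.046 (ER). With an array left out they ranged from -0.17 to 0.075 (J protein class), from -0.11 to -0.034 (CCT), from -0.018 to 0.055 (ER) and from -0.23 to -0.13 (mitochondrion).

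For the other lists, a further quantile normalization gave medians of 0.047 (cochaperones) and -0.098 (CCT and prefoldin), and centring gave -0.015 (ER unfolded protein response) and -0.027 (neighbours of Hspa1a). The neighbours' median ranged from 0.013 to 0.071 with an array left out, the lowest without knockout replicate 1. Over the 12 heat-inducible genes with Hspa1a the range was -0.068 to 0.031.

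Signs turned for genes near 0. After a further quantile normalization these were Canx (0.046), Cct3 (0.015), Cct5 (0.0091), Cct7 (0.035), Dnajc3 (0.013), Hsp90aa1 (0.031), Hspa2 (-0.066), Hspa4 (0.0032), Hspa5 (0.032) and Hspa8 (0.014), and after centring Calr (-0.062), Cct4 (-0.078) and Hspa2 (-0.0749). With an array left out the ranges were -0.29 to 0.20 (Bag3), -0.028 to 0.076 (Calr), -0.012 to 0.0093 (Canx), -0.029 to 0.046 (Cct4), -0.0399 to 0.00021 (Cct7), -0.28 to 0.0802 (Dnajb4), -0.031 to 0.012 (Hsp90aa1), -0.22 to 0.24 (Hspa2) and -0.13 to 0.055 (Hspa5). With all probe sets tested singly, 14 marker calls were lost; with a further quantile normalization, 4. Hspb1 lay outside the 9969 brighter genes and has no value there.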
